A study of Mus musculus with 10 samples.

Results

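The genes described here are 32 genes of glycolysis and of the response to low oxygen, chosen by name for their known roles out of 26504 genes in the tables. The choice was made with earlier results of these data known. Of these, 17 serve glucose uptake, glycolysis and lactate handling (*Slc2a1*, *Hk1*, *Hk2*, *Gpi1*, *Pfkl*, *Pfkp*, *Pfkfb3*, *Aldoa*, *Tpi1*, *Gapdh*, *Pgk1*, *Pgam1*, *Eno1*, *Pkm*, *Ldha*, *Ldhb* and *Slc16a3*). The other 15 are oxygen-sensitive transcription factors and genes known to respond to hypoxia (*Hif1a*, *Epas1*, *Vegfa*, *Bnip3*, *Bnip3l*, *Egln1*, *Egln3*, *Ankrd37*, *P4ha1*, *P4ha2*, *Pdk1*, *Ddit4*, *Ndrg1*, *Mif* and *Higd1a*). All 32 had UMIs (unique molecular identifiers, each standing for 1 captured mRNA) in the sorted endothelial cells (ECs).

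Glycolysis splits glucose into pyruvate, which is passed to mitochondria or reduced to lactate and exported, and endothelial cells are known to draw much of their ATP from it. When oxygen is low, the prolyl hydroxylases encoded by *Egln1* and *Egln3* no longer mark HIF-1α and HIF-2α (encoded by *Hif1a* and *Epas1*) for degradation, and the stabilised factors raise the transcription of glucose transporters, glycolytic enzymes, *Vegfa* and mitophagy genes. In bone, endothelial HIF-1α is known for its part in the growth of metaphyseal capillaries.

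Single-cell RNA sequencing was performed on lineage-depleted cells of femur and tibia that were positive for both GFP and tdTomato, from *Cdh5-mTnG* mice (strain C57BL/6), in which *Cdh5* regulatory sequence drives both fluorophores in endothelium. The 5 groups, all carrying this reporter, were juvenile (3 weeks, males and females), adult (12 weeks, females), aged (75 weeks, females), PTH (females of 12 weeks treated with parathyroid hormone) and alendronate (females of 12 weeks treated with this bisphosphonate), with 2 libraries each. Animals were pooled and the experiment was done once, so the spread between libraries, and every p-value based on it, does not measure differences between mice. The series names kit versions V2 and V3 without saying which library used which.

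Of 47466 barcodes, 45070 were kept as ECs (10519012 to 28047979 UMIs per library, with a median of 3116 to 5088 per cell). Of these, 36258 (80.4%) were assigned by gate markers to sinusoidal (*Stab2*; 18451 cells), arterial (*Gja4*; 5226), metaphyseal (*Ramp3* and *Aplnr*; 10931) or type R ECs (*Timp4* and *Aqp7*; 1650), the last being the capillaries linked to remodelling bone. Each of 8 sinusoidal, 8 arterial and 7 type R check markers was highest on average in its own type, as were 5 of 6 metaphyseal ones, the exception being *Esm1* at 60.6 CPM (UMIs of a gene relative to all UMIs of the sum, scaled with TMM factors) in arterial and 32.1 in metaphyseal ECs. At the edge of the gate (2 marker UMIs, or a lead of 1 over the next type) lay 15.8% of typed cells. No doublets were removed, and the pair of libraries sharing most barcodes shared 88. The aged libraries stood apart: ribosomal protein genes took 9.14% and 9.39% of UMIs against 15.5 to 19.1% in the other 8 libraries, and mitochondrial transcripts took 2.64% and 2.79% against 1.23 to 1.503%. Gene names starting with U, 276 of them, had UMIs in the aged libraries only and were left out. The other 8 libraries held no UMIs of any gene name starting with U, for a reason that is not known. Age and library preparation cannot be told apart. PTH replicate 1 held 18 type R cells and was left out for that type, so that 9 type R sums remain. Of its 2163 ECs only 1 held under 2000 UMIs, against 1977 of 7496 in PTH replicate 2. Whether this bears on its number of type R cells was not tested.

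The first comparison asked how the members differ between the 4 EC types. UMIs were summed per type and library, expressed in CPM, and each type was compared with the mean of the other 3 by edgeR's quasi-likelihood test with the library as a block. A gene was called at a Benjamini-Hochberg adjusted p under 0.05 and an absolute log2 fold change over 0.5. *Hk2* (hexokinase 2) and *Pgam1* (phosphoglycerate mutase) had too few UMIs to be tested, so 30 members entered. The hypoxia response genes did not move as 1 block: *Vegfa*, *Hif1a* and *Pdk1* were higher in sinusoidal and lower in type R ECs, and *Bnip3*, *Ankrd37* and *P4ha2* were lower in sinusoidal and higher in type R ECs.

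**Figure D1:**
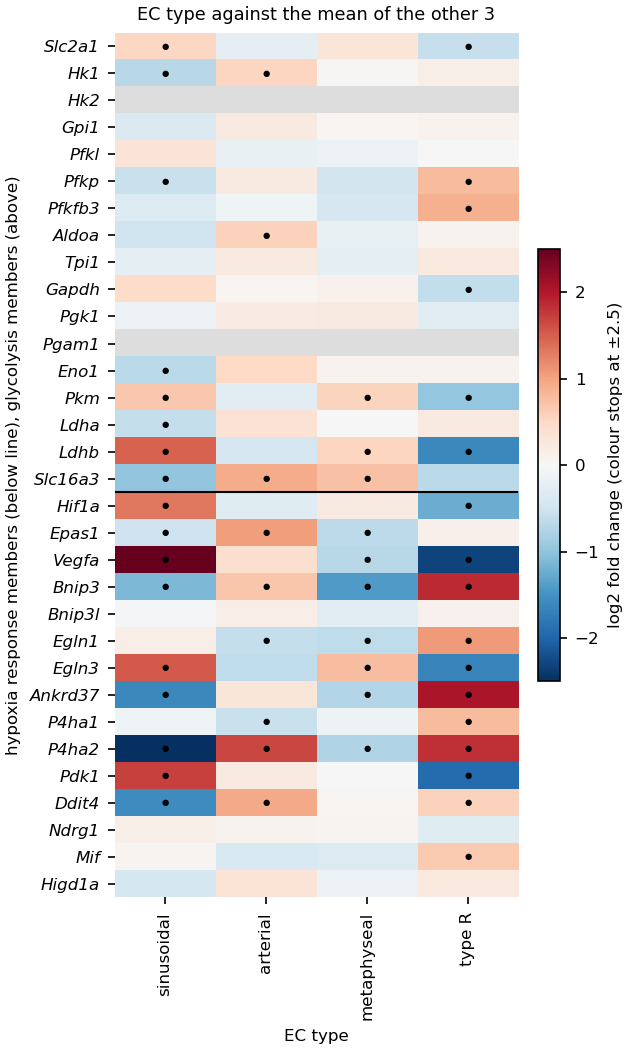
Log2 fold change of the 32 members (rows) in each EC type (columns) against the mean of the other 3 types. Red is higher and blue lower, dots mark called members and grey marks *Hk2* and *Pgam1*, which were not tested; sinusoidal and type R ECs show opposite colours for *Vegfa*, *Pdk1*, *Hif1a*, *Bnip3*, *Ankrd37* and *P4ha2*.

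In sinusoidal ECs, 7 of 30 members (23.3%) were higher, where 18.2% of all 11633 genes tested were, and 10 (33.3%) were lower, where 15.3% of all genes were. The median log2 fold change was -0.19 over the members and 0.03 over all genes. *Vegfa*, the main endothelial growth factor, ranged in the 10 sinusoidal sums from 21.4 over a median of 29.7 to 69.9 CPM, in arterial sums from 3.39 over 10.9 to 22.9, in metaphyseal sums from 3.01 over 5.86 to 12.9 and in the 9 type R sums from 0 over 2.60 to 6.57. It was highest in sinusoidal ECs in 9 of the 9 libraries with all 4 types, and its log2 fold change there was 2.60 ± 0.12 (SE; adjusted p = 1.39e-20). *Vegfa* had a mean under 20 CPM, the level set for naming genes, and is described because its values stood out.

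*Hif1a*, the oxygen-regulated subunit of HIF-1, was measured at 265 ± 50.3 CPM (SD, n = 10) in sinusoidal, 151 ± 34.0 (n = 10) in metaphyseal, 116 ± 24.7 (n = 10) in arterial and 74.8 ± 15.8 (n = 9) in type R ECs. The lowest sinusoidal sum (209) lay just under the highest metaphyseal sum (215), yet sinusoidal ECs were highest and type R ECs lowest in 9 of 9 libraries. The log2 fold change of *Hif1a* was 1.32 ± 0.05 in sinusoidal (adjusted p = 4.04e-24) and -1.24 ± 0.07 in type R ECs (2.08e-16). *Pdk1* encodes a kinase that inhibits pyruvate dehydrogenase. It was at 92.3 ± 35.5 CPM in sinusoidal and 13.4 ± 11.5 in type R ECs, again the highest and lowest type in 9 of 9 libraries. Its log2 fold change was 1.71 ± 0.09 in sinusoidal (adjusted p = 9.53e-19) and -1.93 ± 0.19 in type R ECs (1.32e-10).

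Among the glycolysis genes, *Pkm* (pyruvate kinase, log2 fold change 0.67 ± 0.05) and *Slc2a1* (the glucose transporter GLUT1, 0.51 ± 0.08) were higher in sinusoidal ECs. The call for *Slc2a1* lay at the threshold and was lost under 7 alternatives, with plain totals (0.43), with cells thinned to 2000 UMIs (0.46) and without adult replicate 2 (0.49), aged replicate 1 (0.48), aged replicate 2 (0.47), PTH replicate 1 (0.49) or alendronate replicate 1 (0.50). *Hk1* (hexokinase 1, -0.70 ± 0.05), *Eno1* (enolase, -0.67 ± 0.05) and *Ldha* (lactate dehydrogenase A, -0.59 ± 0.07) were lower. *Eno1* was lowest in sinusoidal ECs in 9 of 9 libraries, at 133 ± 40.2 CPM against 243 ± 60.7 in arterial ECs. *Ldhb*, the lactate dehydrogenase subunit of oxidative tissues, moved the other way from *Ldha* (1.48 ± 0.17, adjusted p = 1.36e-09), at 25.8 ± 11.3 CPM in sinusoidal and 10.5 ± 6.13 in arterial ECs. *Egln3*, a HIF prolyl hydroxylase gene, was higher in sinusoidal (1.53 ± 0.25) and lower in type R ECs (-1.66 ± 0.61). The type R value rested on 5 UMIs, type R was highest in 1 and lowest in 5 of 9 libraries, and the call was lost under 5 alternatives. *Ldhb* and *Egln3* were named after their values were seen.

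*P4ha2*, a collagen prolyl hydroxylase subunit, was the member with the lowest log2 fold change in sinusoidal ECs, where its 10 sums ranged from 1.97 over a median of 5.22 to 7.06 CPM. Arterial sums ranged from 24.0 over 45.9 to 80.8 and did not overlap with them, and the log2 fold change in sinusoidal ECs was -2.74 ± 0.10 (adjusted p = 1.54e-23). *Ddit4*, an inhibitor of mTORC1 signalling, was lowest in sinusoidal ECs in 9 of 9 libraries, at 84.2 ± 26.7 against 301 ± 67.2 CPM in arterial ECs (log2 fold change -1.57 ± 0.11, adjusted p = 3.49e-15). *Bnip3*, a mitophagy receptor, was at 18.6 ± 3.70 CPM in sinusoidal ECs (log2 fold change -1.13 ± 0.12).

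**Figure D2:**
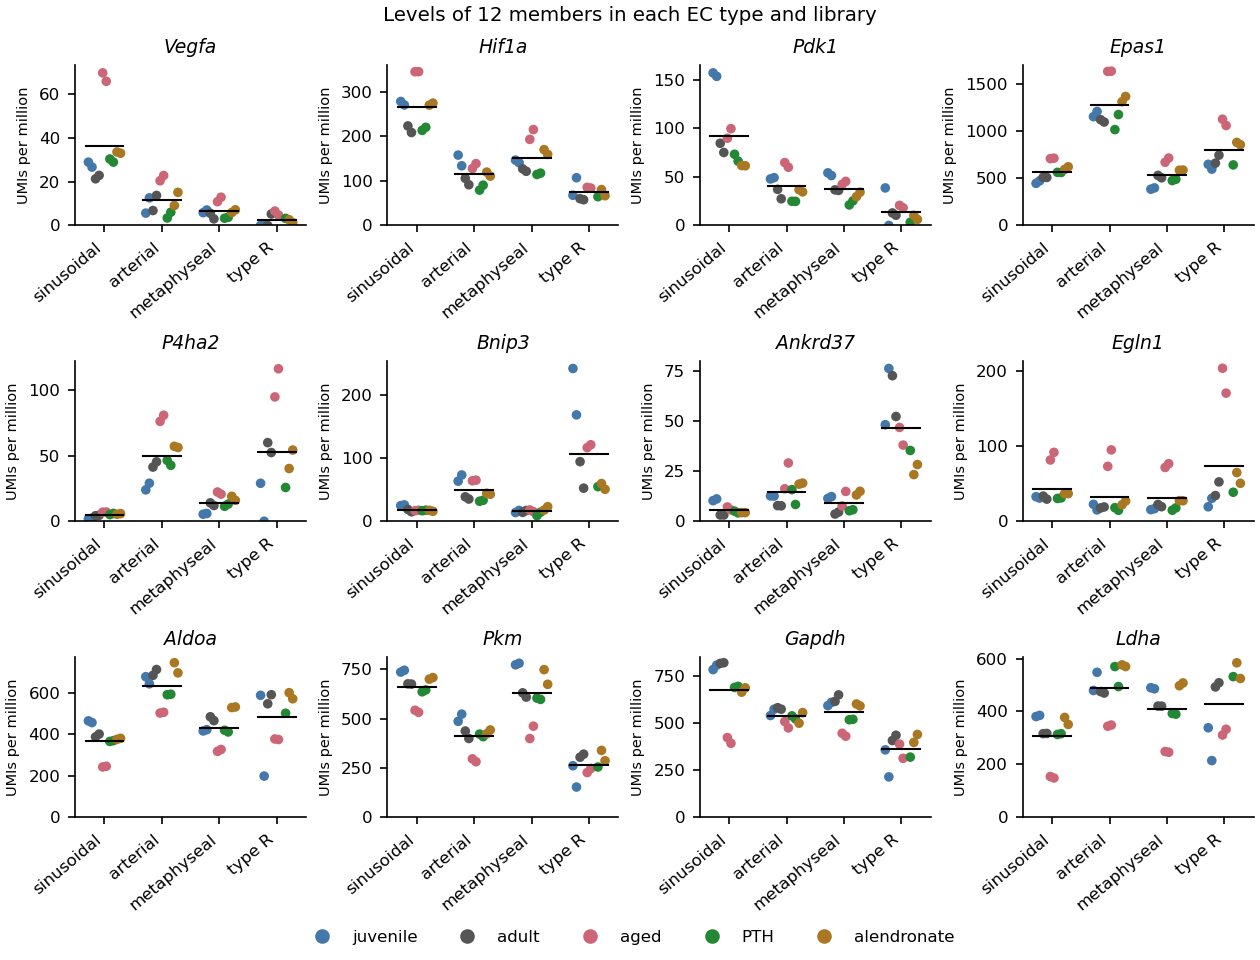
Levels in CPM (vertical axes from 0) of 12 members in each EC type, 1 point per library coloured by group, with lines at the mean. *Vegfa*, *Hif1a* and *Pdk1* are highest in sinusoidal ECs, *Epas1* and *Aldoa* in arterial ECs, and *Bnip3* and *Ankrd37* in type R ECs.

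In arterial ECs, 7 members (23.3%) were higher, where 11.0% of all genes were, and 2 (6.67%) were lower, where 10.2% were (median log2 fold change 0.22 over the members and -0.00 over all genes). *Epas1*, which encodes HIF-2α, was at 1272 ± 216 CPM in arterial, 801 ± 192 in type R, 569.7 ± 91.4 in sinusoidal and 534 ± 107 in metaphyseal ECs, and was highest in arterial ECs in 9 of 9 libraries (log2 fold change 1.04 ± 0.04, adjusted p = 3.48e-21). The sinusoidal and metaphyseal levels of *Epas1* lay within their spread of each other, and its order over the types was not that of *Hif1a*. *P4ha2* (1.67 ± 0.08), *Ddit4* (0.94 ± 0.10) and *Bnip3* (0.69 ± 0.12) were also higher. *Aldoa* (aldolase A, 0.57 ± 0.06) was highest in arterial ECs in 9 of 9 libraries, at 637 ± 84.6 against 369.8 ± 74.4 CPM in sinusoidal ECs, and *Hk1* was higher too (0.53 ± 0.05, lost under 1 alternative). With an exclusive gate, which keeps cells with marker UMIs of 1 type only, *Aldoa* was at 0.50 and not called. *Egln1* (-0.59 ± 0.09, lost under 1 alternative), the main HIF prolyl hydroxylase, and *P4ha1* (-0.55 ± 0.09), another collagen prolyl hydroxylase subunit, were lower.

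In metaphyseal ECs, 4 members (13.3%) were higher, where 9.89% of all genes were, and 6 (20%) were lower, where 6.64% were (median log2 fold change -0.06 over the members and 0.01 over all genes). With cells thinned to 2000 UMIs, 5 members in place of 10 were called. *Pkm* was higher (0.55 ± 0.05, adjusted p = 7.55e-11), at 628 ± 126 CPM against 659.7 ± 73.4 in sinusoidal and 266 ± 55.8 in type R ECs. With the exclusive gate it was at 0.46 and with thinned cells at 0.499, and not called. *Slc16a3*, the lactate exporter MCT4, was at 11.5 ± 4.77 CPM in metaphyseal and 11.7 ± 3.48 in arterial ECs, and at 4.60 ± 2.06 in sinusoidal and 4.75 ± 3.37 in type R ECs. It was named after its values were seen. *Bnip3* (-1.41 ± 0.12), *P4ha2* (-0.76 ± 0.09), *Epas1* (-0.65 ± 0.05) and *Egln1* (-0.64 ± 0.08) were lower.

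In type R ECs, 9 members (30.0%) were higher, where 11.7% of all genes were, and 8 (26.7%) were lower, where 14.5% were (median log2 fold change 0.10 over the members and -0.04 over all genes). *Bnip3* ranged in type R from 50.6 over a median of 94.3 to 242 CPM and in metaphyseal ECs from 9.02 over 16.2 to 23.1, with no overlap. In arterial ECs it ranged from 31.7 over 43.5 to 73.2, which overlaps type R. Type R was highest in 9 of 9 libraries (log2 fold change 1.86 ± 0.16, adjusted p = 2.50e-12). The juvenile type R sums, at 242 and 168, rested on 42 and 22 cells. *Ankrd37*, a known HIF-1 target, was at 46.9 ± 18.3 CPM in type R against 14.8 ± 6.59 in arterial and 5.87 ± 2.84 in sinusoidal ECs (log2 fold change 2.04 ± 0.24, adjusted p = 9.81e-09), and was named after its values were seen. *P4ha2* was at 52.5 ± 35.5 CPM (1.83 ± 0.12), within the spread of its arterial level of 49.9 ± 18.3. *Egln1* (1.06 ± 0.11), *P4ha1* (0.79 ± 0.13), *Pfkfb3* (0.89 ± 0.15), which makes an activator of phosphofructokinase, and *Pfkp* (0.79 ± 0.10), a phosphofructokinase subunit, were higher as well. Type R was the highest type for *Egln1* and *P4ha1* in 7 and for *Pfkfb3* and *Pfkp* in 8 of 9 libraries. *Egln1* ranged in type R from 19.3 over a median of 50.6 to 204 CPM, with the aged sums highest (204 and 171). It held 2 UMIs in each juvenile type R sum. *Pfkfb3* ranged in type R from 11.1 over 45.9 to 85.5 CPM, and was lowest in type R in 1 library. *P4ha1* ranged in type R from 12.9 over a median of 38.7 to 77.9 CPM, with the aged sums highest (77.9 and 69.6), and was lowest in type R in 2 libraries.

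Of the glycolysis enzymes from *Aldoa* to *Ldha* in the pathway, *Pkm* (log2 fold change -0.96 ± 0.07, adjusted p = 2.34e-14) and *Gapdh* (glyceraldehyde-3-phosphate dehydrogenase, -0.61 ± 0.08) were called lower in type R ECs and were lowest there in 9 of 9 libraries. *Gapdh* was at 363 ± 72.0 CPM in type R and 678 ± 154 in sinusoidal ECs, and was not called with the exclusive gate (-0.39) or with thinned cells (-0.45). *Slc2a1* was called lower too (-0.58 ± 0.16, 103 UMIs), but type R was lowest in 6 and highest in 2 of 9 libraries. That call was lost with thinned cells (-0.42), with the exclusive gate (-0.58) and without aged replicate 2 (-0.48). *Aldoa* (0.10 ± 0.07), *Pgk1* (-0.28 ± 0.23) and *Eno1* (0.09 ± 0.07) did not pass. *Tpi1* (0.24 ± 0.10, adjusted p = 0.0459) and *Ldha* (0.23 ± 0.08, adjusted p = 0.0218) passed the adjusted p but not the size threshold of 0.5. Type R cells had median UMIs of 1710 to 3593 per library against 3433 to 7305 in sinusoidal ECs, and *Vegfa* and *Pdk1* rested on 17 and 64 UMIs in type R.

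Reads of some members are uncertain. *Pgk1* and *Pgam1* held 2480 and 171 UMIs over all ECs. *Gapdh* and *Eno1*, on either side of them in the pathway, held 113857 and 32848. The reason for this gap was not tested. The 3′ end of *Gapdh* has 104 near-identical copies in the annotation, 99 of them pseudogenes, *Mif* has 3, and *Eno1* and *Ldhb* have 1 each, and how reads matching several places were counted is not given in the sources used here. *Gpi1* and *Bnip3* each match 1 gene elsewhere in the annotation, and the other matches of *Bnip3*, *Pfkp* and *Ndrg1* are the overlapping genes named next, not further copies. *Ankrd37*, *Bnip3*, *Pfkp*, *Tpi1*, *Ndrg1* and *Higd1a* overlap exons of a gene on the opposite strand, as do *Slc2a1*, *Hk1*, *Gpi1*, *Gapdh* and *Hif1a*, and whether counting used the strand is not given either. *Pkm* and *Hif1a* overlap exons of another gene on their own strand.

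Of the 32 members, 29 matched a start site in RefSeq (GRCm38.p6), the others being *Epas1*, *Bnip3l* and *Ndrg1*. The HIF core motif ACGTG, searched on both strands (CACGT on the printed strand is a match on the other, so the palindrome CACGTG counts on both), lay within 250 bases upstream of a start for 18 of these 29 genes (62.1%), 9 of 17 glycolysis and 9 of 12 hypoxia response genes, against 18.5% of 27025 genes. It was present for 5 of 7 matched members higher and 6 of 9 lower in sinusoidal ECs, for 5 of 6 higher and 2 of 2 lower in arterial, for 3 of 4 higher and 5 of 5 lower in metaphyseal, and for 7 of 9 higher and 5 of 8 lower in type R ECs, so it was found among members of both directions. The upstream sequences of 3 members high in type R (*Ankrd37*, *Bnip3* and *P4ha2*), of *Hif1a*, high in sinusoidal ECs, and of *Ldha*, the member with most matches, are shown 5′ to 3′ on the gene's strand with the matches in capitals. A match describes the letters and does not show that a factor binds there.
Ankrd37 (chr8:45999851-46000100, minus strand): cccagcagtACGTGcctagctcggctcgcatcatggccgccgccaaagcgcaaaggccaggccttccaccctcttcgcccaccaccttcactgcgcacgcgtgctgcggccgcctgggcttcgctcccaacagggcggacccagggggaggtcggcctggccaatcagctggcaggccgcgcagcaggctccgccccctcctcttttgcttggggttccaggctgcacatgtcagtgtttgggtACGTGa
Bnip3 (chr7:138909507-138909756, minus strand): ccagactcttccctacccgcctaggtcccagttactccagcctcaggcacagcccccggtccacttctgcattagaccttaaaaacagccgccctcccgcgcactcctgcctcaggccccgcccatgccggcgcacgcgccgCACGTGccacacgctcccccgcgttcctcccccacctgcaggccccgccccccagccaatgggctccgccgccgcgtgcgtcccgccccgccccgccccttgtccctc
P4ha2 (chr11:54100674-54100923, plus strand): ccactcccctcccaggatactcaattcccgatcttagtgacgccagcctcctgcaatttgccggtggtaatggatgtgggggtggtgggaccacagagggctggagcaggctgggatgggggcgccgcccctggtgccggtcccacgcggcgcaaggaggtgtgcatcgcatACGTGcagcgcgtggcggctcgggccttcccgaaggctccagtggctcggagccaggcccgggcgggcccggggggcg
Hif1a (chr12:73907617-73907866, plus strand): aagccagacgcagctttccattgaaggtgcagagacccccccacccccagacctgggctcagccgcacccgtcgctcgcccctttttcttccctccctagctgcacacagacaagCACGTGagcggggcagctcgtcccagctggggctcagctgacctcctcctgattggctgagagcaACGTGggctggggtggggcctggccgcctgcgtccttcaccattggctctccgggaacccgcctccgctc
Ldha (chr7:46845554-46845803, plus strand): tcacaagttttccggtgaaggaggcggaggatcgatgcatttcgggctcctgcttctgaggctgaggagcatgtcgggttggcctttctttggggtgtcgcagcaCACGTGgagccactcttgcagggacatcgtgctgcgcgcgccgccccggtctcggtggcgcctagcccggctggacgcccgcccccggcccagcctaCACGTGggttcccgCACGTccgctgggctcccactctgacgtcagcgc

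Further genes of these pathways came from lists. In sinusoidal ECs, 1 of 9 other glycolysis genes tested was higher and 1 lower. *Slc16a1*, the lactate and pyruvate transporter MCT1, was at 91.2 ± 21.8 CPM in sinusoidal and 4.78 ± 1.90 in arterial ECs (log2 fold change in sinusoidal ECs 3.24 ± 0.10, adjusted p = 4.74e-25), the opposite direction to *Slc16a3* (-0.99 ± 0.19, adjusted p = 1.78e-05), which was at -0.53 and not called with thinned cells. *Gpd2*, the mitochondrial glycerol-3-phosphate dehydrogenase, was lower in sinusoidal (-0.999 ± 0.08) and higher in type R ECs (0.72 ± 0.12). Of 38 other HIF regulators and targets tested, 7 were higher and 6 lower in sinusoidal ECs, 4 and 8 in arterial, 2 and 6 in metaphyseal and 7 and 5 in type R ECs. Of all genes, 18.2% were higher and 15.3% lower in sinusoidal ECs, 11.0% and 10.2% in arterial, 9.89% and 6.64% in metaphyseal and 11.7% and 14.5% in type R ECs, so the shares in sinusoidal ECs (18.4% and 15.8%) were near those of all genes. *Cited2* (2.58 ± 0.08), a feedback inhibitor of HIF, *Angptl4* (2.60 ± 0.10) and *Hmox1* (haem oxygenase 1, 1.89 ± 0.07) were higher in sinusoidal ECs, and the histone demethylase gene *Kdm6b* (0.97 ± 0.09) in type R ECs. Of 12 genes for the entry of pyruvate into mitochondrial metabolism, 1 was higher and 1 lower in type R ECs.

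The next comparisons asked how the members differ from adult bone in juvenile, aged and treated bone. UMIs were summed over all ECs of a library and each group was compared with adult in 1 edgeR fit over the 10 libraries (16084 genes, called at an adjusted p under 0.05), and the same was done within each type. The 4 comparisons share the 2 adult libraries. The shares of the types differed, with sinusoidal ECs making up 61.2% of ECs in juvenile, 48.7% in adult, 24.6% in aged, 27.3% in PTH and 38.5% in alendronate libraries. In the same order, arterial ECs made up 4.49%, 8.46%, 17.7%, 15.6% and 13.7%. Metaphyseal ECs made up 24.4%, 21.1%, 18.7%, 40.3% and 16.8%, and type R ECs 0.78%, 1.96%, 11.1%, 1.30% and 6.02%. In sums over all ECs, fewer cells of a type and less RNA per cell cannot be told apart. Differences within types are given as well, with the number of alternative analyses under which a call was lost, where there were any.

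**Figure D3:**
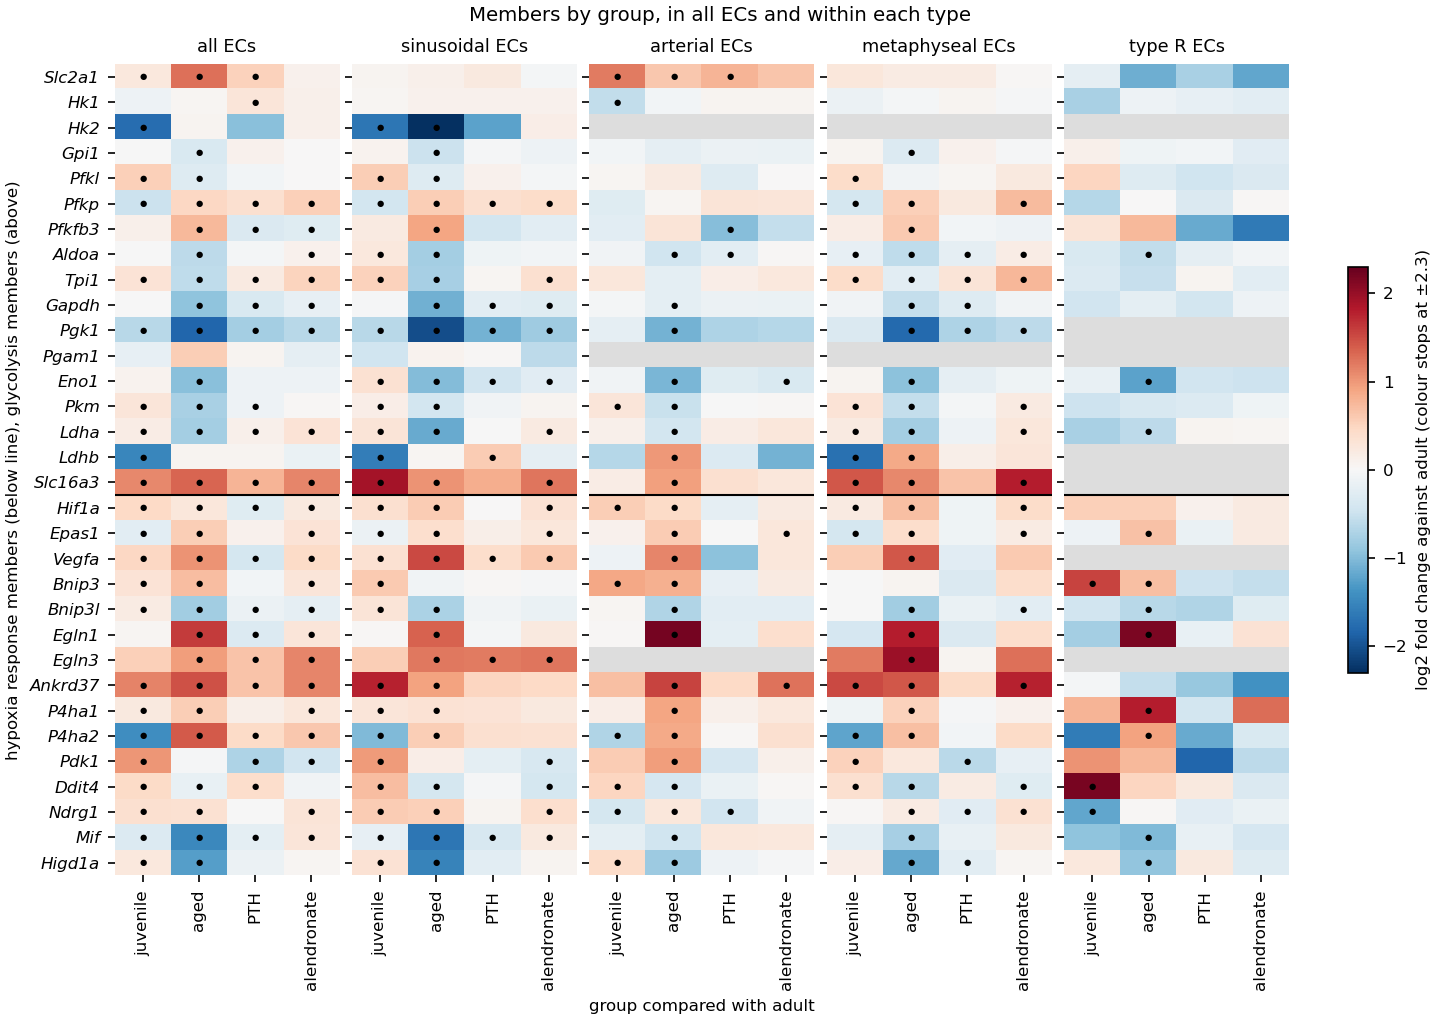
Log2 fold change against adult of the 32 members (rows) in juvenile, aged, PTH and alendronate libraries (columns), over all ECs and within sinusoidal, arterial, metaphyseal and type R ECs. Red is higher and blue lower, dots mark members called at an adjusted p under 0.05 and grey marks members not tested; in the aged columns *Eno1*, *Mif* and *Higd1a* are blue and *Egln1* and *P4ha1* red in all 5 panels.

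In aged bone both the glycolysis and the hypoxia response genes held members that rose and members that fell. Over all ECs, 14 of 32 members (43.8%) were higher, where 36.3% of all genes were, and 13 (40.6%) were lower, where 36.5% were, so the share of members called was near that of all genes. Of the 17 glycolysis genes 9 fell and 4 rose (median log2 fold change -0.30), and of the 15 hypoxia response genes 4 fell and 10 rose (median 0.57; 0.00 over all genes). Summed over the 17 glycolysis genes, the aged libraries held 1922 and 1929 CPM against 2945 and 2966 in adult. With plain totals in place of TMM factors the median of all genes moved to 0.36 and that of the glycolysis genes to 0.06, so the sign of the latter depends on the scaling. Under that scaling 19 members were higher and 10 lower, *Pfkl* (0.06, from -0.30 ± 0.05) was not called, and *Ddit4* turned from -0.18 ± 0.04 to 0.18.

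Several glycolytic enzymes fell. *Gapdh* was at 398 and 376 CPM in aged and 723 and 744 in adult ECs (log2 fold change -0.92 ± 0.04, adjusted p = 1.40e-10). *Eno1* was at 99.2 and 105 against 200.1 and 199 (-0.97 ± 0.05, adjusted p = 7.06e-10). *Ldha* was at 218 and 224 against 381 and 383 (-0.79 ± 0.04). For these enzymes and for *Pkm* (-0.75 ± 0.03) and *Aldoa* (-0.61 ± 0.03), both aged libraries lay under all 8 others. *Pgk1*, whose enzyme makes the first ATP of the pathway, fell from 20.4 and 21.7 to 5.63 and 6.24 CPM (-1.83 ± 0.17). It held 404 and 401 UMIs in adult and 92 and 102 in aged ECs. *Ldha*, *Pkm*, *Aldoa* and *Pgk1* were named after their values were seen, and all of these falls kept their direction and call with plain totals (-0.56 for *Gapdh*, -0.61 for *Eno1*, -0.43 for *Ldha*, -0.39 for *Pkm*, -0.25 for *Aldoa* and -1.47 for *Pgk1*).

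Within types, *Eno1* fell in all 4 (log2 fold change -0.99 in sinusoidal, -1.06 in arterial, -0.94 in metaphyseal and -1.24 in type R ECs). *Gapdh* fell in sinusoidal (-1.10), metaphyseal (-0.55) and arterial ECs (-0.22) and was at -0.23 in type R ECs, which did not pass; the arterial call was lost under 5 alternatives. The test of whether the aged difference varies over the types was called for *Gapdh* (adjusted p = 2.05e-07) and *Ldha* (0.000163). *Ldha* was at -1.16 in sinusoidal and -0.43 in arterial ECs.

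Members of the hypoxia response set fell as well. *Mif*, a cytokine, was at 77.7 and 85.5 CPM in aged and 219 and 235 in adult ECs (-1.48 ± 0.07, adjusted p = 6.93e-10). With plain totals, ECs without a type held 106 and 144 CPM of *Mif* in aged against 437 and 463 in adult libraries. Typed ECs held 92.7 and 92.5 against 162 and 173. *Higd1a*, a mitochondrial protein induced by hypoxia, was at 48.2 and 49.6 against 118 and 117 (-1.26 ± 0.05), and the mitophagy receptor gene *Bnip3l* at 140.4 and 139.7 against 241 and 249 (-0.81 ± 0.04). *Mif* fell in all 4 types (-1.67 to -0.47), and so did *Higd1a* (-1.53 to -0.84). In type R ECs the call for *Higd1a* was lost under 5 alternatives and that for *Mif* under 1, as was the arterial call for *Mif*. *Bnip3l* was at -0.73, -0.68, -0.80 and -0.63 in sinusoidal, arterial, metaphyseal and type R ECs, called in sinusoidal, arterial, metaphyseal and type R (lost under 2) ECs.

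Most other hypoxia response genes rose. *Egln1* was at 77.4 and 81.3 CPM in aged and 27.1 and 24.7 in adult ECs, with the other 6 libraries between 20.7 and 32.1 (log2 fold change 1.61 ± 0.06, adjusted p = 2.93e-11). It rose by 1.36 in sinusoidal, 2.20 in arterial, 1.80 in metaphyseal and 2.16 in type R ECs. *Epas1* was at 824 and 835 against 565 and 550.3 CPM (0.57 ± 0.04, adjusted p = 5.61e-08). Within types *Epas1* was at 0.38, 0.58, 0.40 and 0.67 in sinusoidal, arterial, metaphyseal and type R ECs, called in sinusoidal, arterial, metaphyseal and type R ECs. *Bnip3* rose over all ECs (0.71 ± 0.09) and was at -0.08, 0.82, 0.07 and 0.69 in sinusoidal, arterial, metaphyseal and type R ECs, called in arterial and type R (lost under 7) ECs. Of the glycolysis genes *Pfkfb3* rose (0.74 ± 0.07) and was at 0.90, 0.29, 0.59 and 0.75 in sinusoidal, arterial, metaphyseal and type R ECs, called in sinusoidal and metaphyseal (lost under 2) ECs. *Vegfa* was at 30.5 and 28.3 against 14.0 and 14.9 (1.03 ± 0.07) and rose in sinusoidal (1.52), arterial (1.12) and metaphyseal ECs (1.44). *P4ha2* was at 32.4 and 34.6 against 12.4 and 12.6 (1.42 ± 0.08) and rose in all 4 types (0.57 to 0.93). The call for *P4ha2* was lost under 10 alternatives in sinusoidal, 8 in type R and 1 in metaphyseal ECs, and the arterial call for *Vegfa* under 2. These last 2 genes were named after their values were seen.

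**Figure D4:**
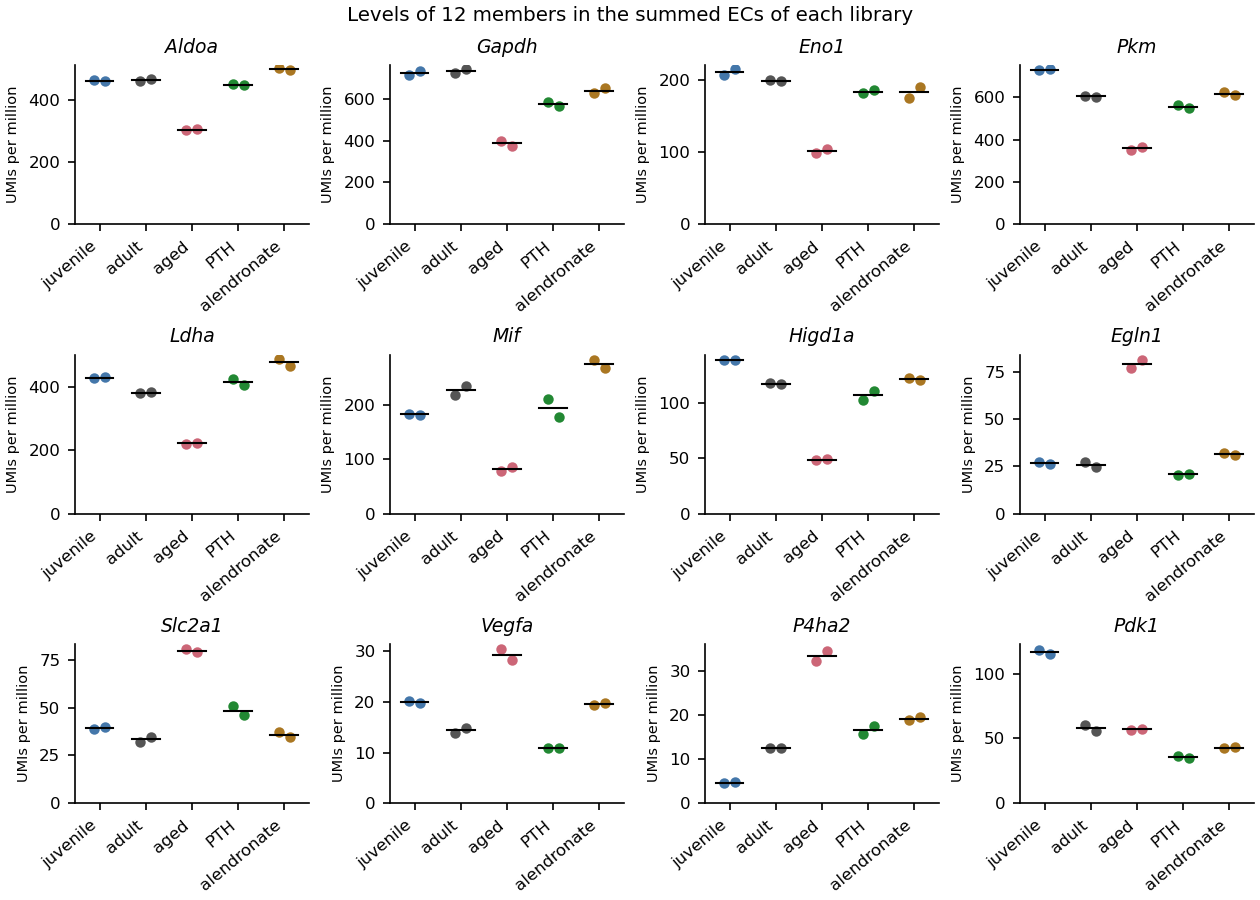
Levels in CPM (vertical axes from 0) of 12 members summed over all ECs, 1 point per library, with lines at the mean of each group. The aged libraries are the lowest for *Aldoa*, *Gapdh*, *Eno1*, *Pkm*, *Ldha*, *Mif* and *Higd1a* and the highest for *Egln1*, *Slc2a1*, *Vegfa* and *P4ha2*, and *Pdk1* is highest in the juvenile libraries.

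Within types, 26 of 32 members were called in aged sinusoidal ECs (background 66.5% of genes), 23 of 29 in arterial (51.6%), 25 of 30 in metaphyseal (60.3%) and 11 of 25 in type R ECs (33.6%). Over all ECs, 18 haematopoietic markers summed to 4320.2 and 9501 CPM in the aged and 1713 and 2019.7 in the adult libraries, and in type R ECs to 6486 and 13441 in the aged against 959 and 1037 in the adult libraries. They summed to 1002 and 12475 against 839 and 880.2 in arterial, 851 and 5374 against 798 and 1128 in metaphyseal and 648 and 1586 against 1338 and 1694 in sinusoidal ECs, so the 2 aged libraries lay far apart. Over all ECs, megakaryocyte markers summed to 21.7 and 22.7 against 117 and 147, erythroid markers to 1196 and 5858 against 2283 and 2339.7 and stress response genes to 1085 and 1189.7 against 2545 and 2576. The erythroid markers summed to 269.5 and 9721 against 252 and 277 in metaphyseal, 337 and 3720.4 against 347 and 828 in sinusoidal, 299.8 and 300.5 against 139.7 and 242 in arterial and 362 and 435 against 147 and 219 in type R ECs. Mural markers summed to 162 and 170.0 against 459 and 492 over all ECs, 14.4 and 20.1 against 288 and 642 in arterial and 19.7 and 33.4 against 94.3 and 891 in type R ECs. Their part in the aged differences was not tested. With a strict EC gate (at least 4 endothelial and at most 5 haemoglobin UMIs, no *Ptprc*), 28 members were called over all ECs in place of 27.

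The rise of *Slc2a1* stood out in ECs without a type. Over all ECs it was at 80.7 and 78.9 CPM in aged and 32.2 and 34.5 in adult libraries (log2 fold change 1.26 ± 0.06, adjusted p = 5.20e-10), and within types it rose in arterial ECs (0.63, lost under 6 alternatives) and was not called in sinusoidal (0.11), metaphyseal (0.19) or type R ECs (-1.12). With plain totals, ECs that met no type's gate held 354 and 279 CPM in the aged libraries (935 and 826 UMIs) against 27.0 and 25.6 in adult, and typed ECs held 35.9 and 44.3 against 31.4 and 34.5. The PTH libraries also differed in this way, at 129 and 85.0 in ECs without a type and 37.4 and 38.2 in typed ECs. With the strict EC gate the aged log2 fold change of *Slc2a1* was 0.61, and that of *Slc16a3* went from 1.34 ± 0.17 to 0.68. Which cells carried these UMIs was not tested.

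**Figure D5:**
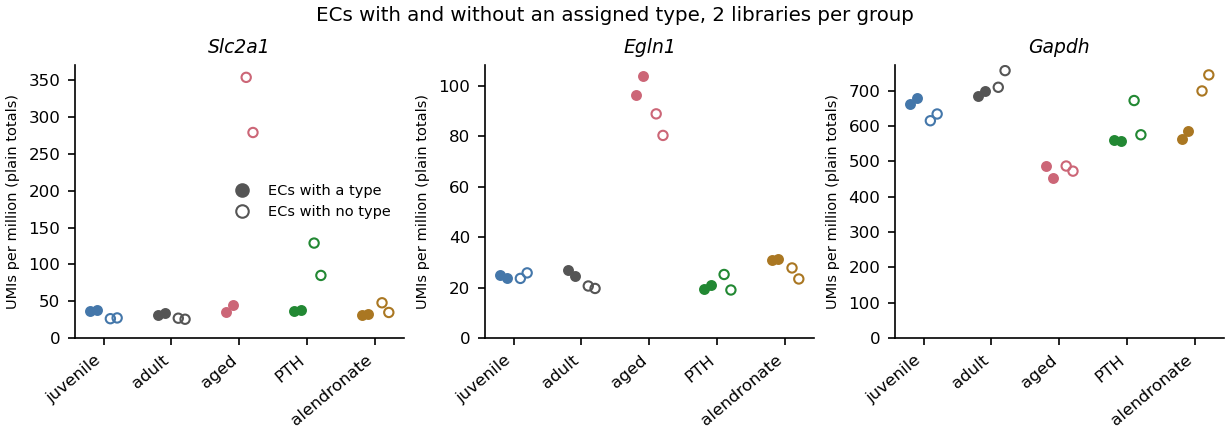
Levels in CPM on plain totals (vertical axes from 0) of *Slc2a1*, *Egln1* and *Gapdh* in ECs with an assigned type and in ECs with none, 2 libraries per group. For *Slc2a1* the aged ECs without a type stand at 354 and 279 and the typed ones at 35.9 and 44.3.

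In the further lists, 6 of 19 other glycolysis genes fell in aged ECs and 3 rose, 8 of 14 pyruvate entry genes fell and 2 rose, and 16 of 43 other HIF regulators and targets fell and 19 rose. Of all genes 36.5% fell and 36.3% rose, so the falls among other glycolysis genes (31.6%) and among HIF regulators and targets (37.2%) were near the background. *Minpp1* (-0.73 ± 0.07) and *Pgm1* (-0.47 ± 0.06) fell. *Mpc2*, a subunit of the mitochondrial pyruvate carrier, fell from 134 and 136 to 62.7 and 63.5 CPM (-1.09 ± 0.04). *Fam162a* (-1.37 ± 0.06) and *Hmox1* (-1.59 ± 0.07) fell, and *Crebbp*, a coactivator of HIF, rose (1.48 ± 0.07).

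In juvenile bone, 16 members (50%) were higher, where 20.5% of all genes were, and 7 (21.9%) were lower, where 20.7% were. *Pdk1* was at 119 and 115 CPM in juvenile and 59.96 and 55.9 in adult ECs, with the other 6 libraries between 35.0 and 57.4 (log2 fold change 1.01 ± 0.05, adjusted p = 6.12e-09). Both juvenile libraries lay above the other 8, and *Pdk1* rose within sinusoidal (0.98) and metaphyseal ECs (0.53). *Pfkl*, a phosphofructokinase subunit, was at 110.0 and 115 against 77.5 and 77.5 (0.54 ± 0.05), and *Hif1a* at 227 and 218 against 167 and 158 (0.45 ± 0.04). *Ddit4* (0.44 ± 0.04) and *Ndrg1* (0.37 ± 0.04), both stress-responsive, rose over all ECs. Within types, *Pfkl* was at 0.57, 0.04, 0.42 and 0.49 in sinusoidal, arterial, metaphyseal and type R ECs, called in sinusoidal and metaphyseal (lost under 3) ECs. With the exclusive gate its metaphyseal difference turned direction. *Hif1a* was at 0.36, 0.56, 0.20 and 0.55 in sinusoidal, arterial, metaphyseal and type R ECs, called in sinusoidal, arterial (lost under 4) and metaphyseal (lost under 11) ECs, and *Ddit4* at 0.71, 0.49, 0.38 and 2.19 in sinusoidal, arterial, metaphyseal and type R ECs, called in sinusoidal, arterial (lost under 1), metaphyseal and type R ECs. *Ndrg1*, higher over all ECs, was at 0.58, -0.40, 0.02 and -1.19 in sinusoidal, arterial, metaphyseal and type R ECs, called in sinusoidal, arterial (lost under 3) and type R (lost under 8) ECs. *P4ha2* was at 4.51 and 4.80 against 12.4 and 12.6 CPM (-1.43 ± 0.11) and *Ldhb* at 7.89 and 6.71 against 20.9 and 20.4 (-1.501 ± 0.12). Both fell within sinusoidal ECs (-1.01, lost under 3 alternatives, and -1.58) and were named after their values were seen. *Pfkp* (-0.50 ± 0.07), *Mif* (-0.31 ± 0.07) and *Epas1* (-0.25 ± 0.04) fell by less. *Pfkp* was at -0.42, -0.28, -0.40 and -0.66 in sinusoidal, arterial, metaphyseal and type R ECs, called in sinusoidal (lost under 1) and metaphyseal (lost under 7) ECs, and *Epas1* at -0.13, 0.09, -0.41 and -0.11 in sinusoidal, arterial, metaphyseal and type R ECs, called in sinusoidal (lost under 5) and metaphyseal ECs. *Mif* was at -0.18, -0.22, -0.21 and -0.92 in sinusoidal, arterial, metaphyseal and type R ECs, called in sinusoidal (lost under 7) ECs. *Hk2*, a hexokinase gene named after its values were seen, had 15 and 17 UMIs in juvenile and 79 and 46 in adult ECs. Of these UMIs, 6 and 10 in juvenile and 45 and 28 in adult libraries lay in ECs without a type. With plain totals, typed ECs held 0.54 and 0.43 CPM in juvenile against 1.97 and 1.13 in adult libraries. *Hk2* fell over all ECs (-1.75 ± 0.43) and within sinusoidal ECs (-1.66, lost under 3 alternatives). The part of the ECs without a type in this fall was not tested. Without adult replicate 1 the difference over all ECs was -1.36 (adjusted p = 0.0569, edgeR), and with cells thinned to 2000 UMIs -1.26, neither called.

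The juvenile libraries hold males and females and the adult ones females only, so age and sex cannot be told apart. Over all ECs, the 18 haematopoietic markers summed to 589 and 591 CPM in juvenile against 1713 and 2019.7 in adult libraries, erythroid markers to 3095 and 3324 against 2283 and 2339.7 and stress response genes to 1487 and 1514 against 2545 and 2576. Within sinusoidal ECs the haematopoietic markers summed to 579 and 630.0 against 1338 and 1694, and within metaphyseal ECs 6 proliferation genes to 308 and 376 against 148 and 152. Their part in the juvenile differences was not tested. Within types, 24 of 32 members were called in juvenile sinusoidal ECs (background 35.0%), 9 of 29 in arterial (10.6%), 14 of 30 in metaphyseal (26.2%) and 3 of 25 in type R ECs (2.28%). Of the further lists, 23 of 43 other HIF regulators and targets rose and 5 fell, 3 of 19 other glycolysis genes rose and 3 fell, and 1 of 14 pyruvate entry genes rose and 2 fell, where 20.5% of all genes rose and 20.7% fell. *Plod1*, a collagen lysyl hydroxylase gene (0.64 ± 0.05), *Hmox1* (0.58 ± 0.07) and *Pgm1*, which links glycogen to glycolysis (0.78 ± 0.06), rose.

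Under PTH, which builds bone when given intermittently, 10 members (31.2%) were higher, where 13.3% of all genes were, and 10 (31.2%) were lower, where 12.6% were. *Slc2a1* was at 50.6 and 46.0 CPM in PTH and 32.2 and 34.5 in adult ECs (0.52 ± 0.06, adjusted p = 4.37e-05), and within types rose in arterial ECs (0.78, lost under 6 alternatives). *Ddit4* (0.40 ± 0.04), *Pfkp* (0.38 ± 0.07), *Hk1* (0.29 ± 0.06) and *Tpi1* (triosephosphate isomerase, 0.21 ± 0.05) rose over all ECs. Within types, *Ddit4* was at -0.02, -0.15, 0.19 and 0.23 in sinusoidal, arterial, metaphyseal and type R ECs, called in none of them. *Pfkp* was at 0.37, 0.29, 0.22 and -0.32 in sinusoidal, arterial, metaphyseal and type R ECs, called in sinusoidal (lost under 7) ECs, and *Hk1* at 0.10, 0.07, 0.07 and -0.18 in sinusoidal, arterial, metaphyseal and type R ECs, called in none of them. *Tpi1* was at 0.05, 0.16, 0.30 and 0.06 in sinusoidal, arterial, metaphyseal and type R ECs, called in metaphyseal (lost under 7) ECs. *Pdk1* was at 36.3 and 35.0 against 59.96 and 55.9 CPM (-0.71 ± 0.05, adjusted p = 7.37e-07), and was called within metaphyseal ECs (-0.63, lost under 1 alternative). It was at -0.22 in sinusoidal, its highest type, -0.39 in arterial and -1.82 in type R ECs, the last on 1 UMI in PTH replicate 2. *Gapdh* was at 586 and 568 against 723 and 744 (-0.35 ± 0.04). *Pfkfb3* (-0.33 ± 0.08), *Egln1* (-0.32 ± 0.07) and *Hif1a* (-0.29 ± 0.04) were lower over all ECs. These calls were lost under 2 alternatives for *Tpi1*, 3 for *Pfkfb3* and 1 for *Egln1*. Within types, *Gapdh* was at -0.25, -0.13, -0.29 and -0.43 in sinusoidal, arterial, metaphyseal and type R ECs, called in sinusoidal and metaphyseal (lost under 1) ECs, and *Hif1a* at 0.00, -0.21, -0.10 and 0.10 in sinusoidal, arterial, metaphyseal and type R ECs, called in none of them. *Pfkfb3* was at -0.42, -0.98, -0.05 and -1.16 in sinusoidal, arterial, metaphyseal and type R ECs, called in arterial (lost under 4) ECs, and *Egln1* at -0.04, -0.23, -0.33 and -0.16 in sinusoidal, arterial, metaphyseal and type R ECs, called in none of them. Metaphyseal ECs made up 40.3% of ECs in PTH and 21.1% in adult libraries. Over all ECs, 11 mesenchymal markers summed to 216 and 458 CPM in PTH against 33.1 and 81.0 in adult libraries, erythroid markers to 135 and 153 against 2283 and 2339.7 and haematopoietic markers to 1233 and 1419.7 against 1713 and 2019.7. Within sinusoidal ECs the mesenchymal markers summed to 677 and 1444 against 35.2 and 55.5. Their part in the PTH differences was not tested.

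Within types, 8 of 32 members were called in PTH sinusoidal ECs (background 7.77%), 4 of 29 in arterial (4.80%), 7 of 30 in metaphyseal (10.0%) and 0 of 25 in type R ECs by edgeR (0.687%; 1 at an unadjusted p under 0.05 and 0 by DESeq2), where the 1 PTH library left was assumed to vary like the others. The 19 calls over the 4 types became 9 without PTH replicate 1, 11 without PTH replicate 2, and 10 and 10 without adult replicates 1 and 2. Of the further lists, 3 of 19 other glycolysis genes rose, 2 of 14 pyruvate entry genes rose and 2 fell, and 9 of 43 other HIF regulators and targets rose and 6 fell, among them *Hmox1* (-0.88 ± 0.07) and *Cited2* (-0.68 ± 0.06). Of all genes 13.3% rose and 12.6% fell, so the shares of other glycolysis (15.8% higher) and pyruvate entry genes (14.3% higher and 14.3% lower) were near the background.

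Under alendronate, which suppresses bone resorption, 16 members (50%) were higher, where 12.2% of all genes were, and 5 (15.6%) were lower, where 10.5% were. Over all ECs, 11 of the 15 hypoxia response genes rose and 2 fell (median log2 fold change 0.28). Among the rises, calls were lost under 8 alternatives for *Bnip3*, 4 for *Mif*, 3 for *Egln1* and 3 for *P4ha1*. Within types *Bnip3* was at -0.02, 0.21, 0.40 and -0.55 in sinusoidal, arterial, metaphyseal and type R ECs. These genes were named here after their values were seen. *Epas1* was at 685 and 705 CPM in alendronate and 565 and 550.3 in adult ECs (0.32 ± 0.04), and within types was at 0.26, 0.25, 0.19 and 0.21 in sinusoidal, arterial, metaphyseal and type R ECs, called in sinusoidal, arterial (lost under 6) and metaphyseal (lost under 8) ECs. *Tpi1* was at 136 and 139 against 95.4 and 98.6 (0.51 ± 0.05, adjusted p = 2.22e-05), *Pfkp* at 51.9 and 53.7 against 36.2 and 36.3 (0.54 ± 0.06). *Ldha* (0.32 ± 0.04) and *Ndrg1* (0.29 ± 0.04) rose too. Within types, *Tpi1* was at 0.36, 0.24, 0.76 and -0.24 in sinusoidal, arterial, metaphyseal and type R ECs, called in sinusoidal (lost under 1) and metaphyseal ECs. *Pfkp* was at 0.43, 0.28, 0.72 and 0.02 in sinusoidal, arterial, metaphyseal and type R ECs, called in sinusoidal (lost under 2) and metaphyseal ECs, and *Ldha* at 0.21, 0.26, 0.27 and 0.04 in sinusoidal, arterial, metaphyseal and type R ECs, called in sinusoidal (lost under 3) and metaphyseal ECs. *Ndrg1* was at 0.38, -0.09, 0.35 and -0.16 in sinusoidal, arterial, metaphyseal and type R ECs, called in sinusoidal and metaphyseal ECs. *Pdk1* was at 42.6 and 43.3 against 59.96 and 55.9 (-0.43 ± 0.05, adjusted p = 7.09e-05), and was called within sinusoidal ECs (-0.37). It was at 0.12 in arterial, -0.18 in metaphyseal and -0.60 in type R ECs. *Pfkfb3* (-0.28 ± 0.08), *Bnip3l* (-0.21 ± 0.04) and *Gapdh* (-0.19 ± 0.04) fell over all ECs, and the calls were lost under 4 alternatives for *Pfkfb3* and 1 for *Bnip3l*. Within types, *Pfkfb3* was at -0.24, -0.54, -0.13 and -1.62 in sinusoidal, arterial, metaphyseal and type R ECs, called in none of them. *Bnip3l* was at -0.16, -0.24, -0.24 and -0.28 in sinusoidal, arterial, metaphyseal and type R ECs, called in metaphyseal (lost under 6) ECs, and *Gapdh* at -0.27, -0.15, -0.08 and -0.11 in sinusoidal, arterial, metaphyseal and type R ECs, called in sinusoidal ECs. Over all ECs, erythroid markers summed to 580.0 and 856 CPM in alendronate against 2283 and 2339.7 in adult libraries, haematopoietic markers to 2516 and 2531 against 1713 and 2019.7, megakaryocyte markers to 188 and 301 against 117 and 147 and stress response genes to 3187 and 3199 against 2545 and 2576. Within metaphyseal ECs the proliferation genes summed to 70.4 and 72.2 against 148 and 152. Their part in the alendronate differences was not tested.

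Within types, 15 of 32 members were called in alendronate sinusoidal ECs (background 14.3%), 3 of 29 in arterial (3.95%), 13 of 30 in metaphyseal (11.8%) and 0 of 25 in type R ECs by edgeR (1.06%; 6 at an unadjusted p under 0.05 and 0 by DESeq2). The 31 calls over the 4 types became 18 without alendronate replicate 1 and 20 without adult replicate 1. Of the further lists, 2 of 19 other glycolysis genes rose (*Slc16a1*, 0.47 ± 0.06, and *Gpd2*, 0.38 ± 0.10), 2 of 14 pyruvate entry genes fell, and 9 of 43 other HIF regulators and targets rose and 5 fell, where 12.2% of all genes rose and 10.5% fell. *Bhlhe40*, a repressor induced by hypoxia, was at 85.1 and 80.9 against 51.8 and 52.4 CPM (0.67 ± 0.05).

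Side by side against the same adult libraries, *Pgk1* was at -0.64 in juvenile, -1.83 in aged, -0.79 in PTH and -0.64 in alendronate ECs, each called. *Slc16a3* (1.102, 1.34, 0.78 and 1.13 in the same order) and *Ankrd37* (1.15, 1.46, 0.66 and 1.12) were called higher in each. The calls for *Pgk1* in juvenile and in alendronate ECs and for *Slc16a3* in PTH ECs were each lost under 1 alternative. All of these rest on the same 2 adult libraries. *Pgk1*, *Slc16a3* and *Ankrd37* had means under 20 CPM and were named here after their values were seen. Within types, *Pgk1* was at -2.05 to -0.20 over 12 pairs of type and group, 8 of them called, and *Slc16a3* at 0.17 to 1.91 over 12 pairs of type and group, 7 of them called. Calls of *Pgk1* were lost under 11 alternatives in alendronate and 7 in PTH metaphyseal ECs. They were lost under 3 in juvenile sinusoidal, 3 in aged arterial, 1 in PTH sinusoidal and 1 in alendronate sinusoidal ECs. Calls of *Slc16a3* were lost under 6 in aged arterial, 5 in aged sinusoidal and 4 in alendronate sinusoidal ECs. In type R ECs, its highest type, *Ankrd37* was at -0.04, -0.54, -0.86 and -1.39 in the same order of groups, none called. In the other types it was at 0.93 (sinusoidal), 1.55 (arterial) and 1.43 (metaphyseal) in aged and 0.46, 1.25 and 1.78 in alendronate ECs. Its call was lost under 2 alternatives in aged sinusoidal and 11 in alendronate arterial ECs. The difference between types was called in aged (adjusted p = 0.00653, lost under 5) and alendronate libraries (0.00125, lost under 3). *Pdk1* was at -0.03 in aged ECs, which did not pass. Within types it was at 0.15, 0.96, 0.25 and 0.74 in aged sinusoidal, arterial, metaphyseal and type R ECs. Its difference between types was called in aged libraries (adjusted p = 0.0132, lost under 8 alternatives).

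The last test asked whether the difference of a group from adult itself differed between the types (edgeR, 3 degrees of freedom). Called were 12 of 30 members in juvenile (background 9.78% of genes), 14 in aged (19.8%), 2 in PTH (3.92%) and 4 in alendronate libraries (2.73%). *Ndrg1* in juvenile libraries was at 0.58 in sinusoidal, 0.02 in metaphyseal, -0.40 in arterial and -1.19 in type R ECs (range over types in the joint fit 1.80, adjusted p = 1.81e-07). *Ddit4* in juvenile libraries was at 2.19 in type R and 0.38 in metaphyseal ECs (range 1.76, adjusted p = 1.37e-06), with type R resting on 42 and 22 juvenile cells. In aged libraries *Mif* (range 1.09, adjusted p = 4.32e-06) fell most within sinusoidal ECs (-1.67) and least within arterial ECs (-0.47).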

How the data were processed

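Gene counts per cell barcode were deposited by the authors as UMI counts, made with UMI-tools 1.1.2, STAR 2.7.10a and featureCounts 2.0.3 on mm10 per the submitters' processing notes; the annotation and the treatment of reads matching several places are not given in the sources used here. Cells with 500 to 6000 genes, under 25% mitochondrial UMIs and at least 2 UMIs of *Cdh5*, *Pecam1*, *Egfl7* and *Kdr* together were kept, and a type was given by the highest marker sum of at least 2 UMIs. No doublet caller was run. Libraries held 10653583 to 28419323 UMIs. UMIs were summed per library, or per type and library where at least 20 cells remained, and tested with edgeR 4.0.16 (R 4.3.3; TMM, filterByExpr, glmQLFTest, Benjamini-Hochberg over all genes tested). Alternatives were DESeq2 1.42.0, no low-count filter, plain totals, other gates, cells thinned to 2000 UMIs (which left out 9314 ECs, of them 1 in PTH replicate 1 and 1977 in PTH replicate 2), a replicate block and leaving out each library; the block with crossed PTH numbers was added after seeing the data. The fits were tested on simulated data. Near-identical copies were searched with BLAST 2.17.0 (at least 95% identity over 90 bases of the last 400). Members and lists were chosen with earlier results of these data known. Named in full were up to 6 called members per direction for a type and up to 5 for a group, by absolute log2 fold change with a mean of at least 20 CPM, 3 per test of differences between types, and at most 3 genes per further list; others are said to be named after their values were seen. 1 gene of the list of other glycolysis genes is not reported here, and the list's counts are without it.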

Additional observations from a re-analysis of the deposited data

Results flagged for a closer look

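The members given here are all those whose difference from adult differed between the EC types in the edgeR test of that difference (Benjamini-Hochberg adjusted). The range is that of the log2 fold changes over the 4 types in the joint fit, with the adjusted p and, where a call was lost under alternative analyses, their number in parentheses.

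In juvenile libraries 12 members were called, with a range of 9.63 for *Slc16a3* (0.0277; lost under 8), 1.8 for *Ndrg1* (1.81e-07), 1.76 for *Ddit4* (1.37e-06), 1.52 for *Bnip3* (0.0256; lost under 3), 1.44 for *Slc2a1* (0.0255; lost under 6), 1.06 for *Ldha* (0.00064; lost under 2), 0.837 for *Hk1* (0.0453; lost under 13), 0.834 for *Pkm* (0.0299; lost under 6), 0.764 for *Bnip3l* (0.0288; lost under 4), 0.63 for *Aldoa* (0.0248; lost under 3), 0.546 for *Eno1* (0.0391; lost under 7) and 0.496 for *Epas1* (0.000634). *Slc16a3* had 0 UMIs in both juvenile type R sums, so its range there is no measure of size, and the type R sums held 42 and 22 cells. *Bnip3* was at 1.55 in type R and -0.01 in metaphyseal ECs in the fits within types.

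In aged libraries 14 members were called, with a range of 2.1 for *Ankrd37* (0.00653; lost under 5), 1.78 for *Slc2a1* (0.0448; lost under 6), 1.56 for *Ldhb* (0.0288; lost under 10), 1.09 for *Mif* (4.32e-06), 1.06 for *Ddit4* (0.000391), 0.785 for *Bnip3* (0.0379; lost under 10), 0.771 for *Gapdh* (2.05e-07), 0.734 for *Egln1* (0.0269; lost under 9), 0.698 for *Pdk1* (0.0132; lost under 8), 0.686 for *Pfkp* (0.0222; lost under 4), 0.66 for *Ndrg1* (0.00154; lost under 1), 0.619 for *Ldha* (0.000163), 0.581 for *Higd1a* (0.0173; lost under 6) and 0.431 for *Tpi1* (0.0461; lost under 13). *Ddit4* was at 0.49 in type R and -0.63 in metaphyseal ECs.

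In PTH libraries 2 members were called, with a range of 0.624 for *Mif* (0.0366; lost under 9) and 0.506 for *Ndrg1* (0.0276; lost under 4). *Mif* was at -0.37 in sinusoidal and 0.27 in arterial ECs, and 1 PTH library remained in type R.

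In alendronate libraries 4 members were called, with a range of 3.06 for *Ankrd37* (0.00125; lost under 3), 2.94 for *Slc16a3* (0.0466; lost under 12), 0.89 for *Tpi1* (0.0235; lost under 6) and 0.439 for *Ndrg1* (0.0267; lost under 5). *Slc16a3* rested on 3 and 2 UMIs in the alendronate and 2 and 1 in the adult type R sums. *Tpi1* was at 0.76 in metaphyseal and -0.24 in type R ECs. The part of the small type R sums in these ranges was not tested. Members under 20 CPM or beyond the first 3 of a group were named after their values were seen.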

How the results depend on the processing

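Over 361 calls of members and their alternatives, 5767 of 6498 values kept direction and call, 725 kept direction and lost the call, and 6 turned. Where a gene was not tested under an alternative, its call was counted neither as kept nor as lost. With thinned cells 263 calls were kept and 92 lost, and the rest had no value. With plain totals *Ddit4* (0.18), *Gpi1* (0.0011) and *Pfkl* (0.062) turned in aged ECs and *Pfkl* (0.088) in aged sinusoidal ECs; with the exclusive gate *Ldhb* (-0.0079) turned in metaphyseal ECs and *Pfkl* (-0.12) in juvenile metaphyseal ECs. The cause was not tested beyond the shift of the median gene given above for plain totals.

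Members called in metaphyseal ECs went from 10 to 5 with thinned cells. Calls within types went from 50 to 26 in juvenile, from 19 to 7 in PTH and from 31 to 17 in alendronate libraries with the exclusive gate, to 10 in PTH with DESeq2 and to 18 in alendronate libraries with thinned cells. Calls that the difference from adult varied over the types went from 12 to 7 (strict type gate) and 5 (thinned cells) in juvenile, from 14 to 8 (DESeq2, exclusive gate and strict type gate, each) and 7 (thinned cells) in aged, from 2 to 1 (exclusive gate) and 0 (strict type gate) in PTH and from 4 to 1 and 0 with these gates in alendronate libraries. The cause was not tested.

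Leaving out 1 library gave 15 to 18 members called in sinusoidal, 8 to 10 in arterial, 9 to 11 in metaphyseal and 14 to 17 in type R ECs. Over all ECs it gave 20 to 24 in juvenile, 27 in aged, 14 to 20 in PTH and 15 to 21 in alendronate libraries, and within types 36 to 50, 73 to 88, 9 to 22 and 18 to 33. For differences between types it gave 5 to 13 in juvenile (6 without juvenile replicate 1, 5 without adult replicate 1 or 2), 5 to 14 in aged (5 without adult replicate 1, 8 without adult replicate 2, 7 without aged replicate 2), 0 to 2 in PTH (0 without adult replicate 2 or PTH replicate 1, 1 without adult replicate 1 or an alendronate replicate) and 0 to 5 in alendronate libraries (0 without adult replicate 1, 1 without adult replicate 2 or alendronate replicate 2, 2 without alendronate replicate 1).

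Libraries with the same replicate number shared only a number: deviations from the group means correlated from -0.127 to 0.0453 over 10 pairs of groups. With the replicate block, 23, 27, 19 and 20 members were called over all ECs in juvenile, aged, PTH and alendronate libraries and 50, 86, 20 and 31 within types, and 272 of 276 calls were kept. With the PTH numbers crossed, an alternative chosen after seeing the data, the counts were 23, 27, 19 and 20 over all ECs and 50, 87, 20 and 34 within types. The juvenile type R sums were small, at 42 and 22 cells.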
